A study of Mus musculus with 15 samples.

Results

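The genes that encode the chaperones of histone H3.3 were examined in mouse bone marrow-derived macrophages (BMDMs), in wild-type (WT) cells and in cells from which the H3.3 genes had been deleted. The set held 8 genes of the 21938 protein-coding genes of the GENCODE M21 annotation (build mm10): Hira, Ubn1, Ubn2, Cabin1, Asf1a, Asf1b, Atrx and Daxx. They were listed by name for their role, and earlier results of these data were known when the list was made. For each gene, the regions called in each library were read over a window of the gene body plus 5 kb upstream of the gene start. WT mice carried floxed alleles of both H3.3 genes (H3f3a fl/fl H3f3b fl/fl) and no Cre. H3.3 cKO mice carried the same floxed alleles together with LysM-Cre, a Cre placed at the Lyz2 gene that acts in macrophages and granulocytes. The study's main text gives the cKO genotype as LysM cre/cre. As WT mice had no Cre, an effect of the Cre or its place in Lyz2 cannot be told apart from H3.3 loss here. H3.3-HA BMDMs came from other mice, in which H3f3b carried an HA tag and neither gene was deleted. Cells of all groups grew for 6 to 8 days in medium conditioned by L929 cells, a source of the macrophage growth factor M-CSF. CUT&RUN, in which an antibody tethers a nuclease to a chromatin protein so that the DNA beneath it is cut out and sequenced, was done for HA, for acetylated H3K27 (H3K27ac) and for trimethylated H3K36 (H3K36me3), with 2 biological replicates per group and 10 region lists in all. The lists give where a region was called but not how high its signal was, so every value below is a length, a share or a number of called regions. The sex of the mice behind each library was not given in the sources used here, which bears on Atrx, an X-linked gene. In such bulk samples, fewer cells that carry a mark and less of the mark per cell cannot be told apart.

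H3.3 differs from the replication-coupled H3 proteins in only a few residues and is placed on chromatin throughout the cell cycle. A pair of chaperone systems does this. The HIRA complex, made of HIRA, a ubinuclein (UBN1 or UBN2) and CABIN1, deposits H3.3 at active promoters, enhancers and transcribed gene bodies, and receives it from ASF1A. DAXX, which binds H3.3 directly, works with the ATPase ATRX at telomeres, pericentric repeats and retroviral elements. ASF1B is the paralog of ASF1A that is associated with dividing cells and with histone supply to replication. H3K27ac marks active promoters and enhancers, and H3K36me3 marks the bodies of transcribed genes.

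Sequencing tags numbered 5365319 to 29988098 per library, and the lists held between 35018 and 61764 regions. The cKO H3K27ac lists covered 54.1 ± 11.2 Mb of the genome and the WT lists 82.2 ± 10.5 Mb (SD, n = 2 each), at 25560110 to 29988098 tags in cKO and 16444864 to 28366343 in WT. Regions held 11.8% and 17.8% of the tags in the cKO H3K27ac libraries and 24.1% and 21.5% in the WT libraries. Both cKO libraries thus had a lower share of tags in regions, and its part in the shorter cKO lists was not tested. The library labelled cKO H3K36me3 replicate 1 stood apart, with 90.7 Mb covered and 19.3% of its tags in regions, against 163 Mb and 46.5% in replicate 2. For the 8 chaperone genes, the H3K36me3 differences, calls, exon counts and region counts are therefore also given without it. The H3K36me3 values of the marker genes and of the other gene lists include it. The targeted genes were read by exon. Exon 2 of H3f3a, which the floxed allele was made to lose, lay under no region in any of the 10 libraries, WT included, so it checks nothing. The study describes the floxed part of H3f3b as exons 1 to 4 and notes that deletion of this gene was complete in some cKO samples and partial in others. H3K27ac regions nevertheless covered all 126 bp of H3f3b exon 1 and 1065 and 1182 of the 1575 bp of exon 4 in the libraries labelled cKO, and no base of either exon in WT. H3K36me3 regions covered 645 and 860 bp of exon 4 in WT and 1070 and 1122 bp in the libraries labelled cKO. Exons 2 and 3 lay under no region. At H3f3b the lists thus do not show the deletion given by the label, and without signal heights they cannot tell a partial deletion from none. The study reported the deletion in cKO BMDMs by PCR. It reported the depletion of H3.3 RNA by qRT-PCR and RNA-seq, and that of the protein by western blot. Below, cKO stands for the libraries labelled cKO. The macrophage label was checked with 8 marker genes. All 8 had H3.3-HA regions in both replicates, and H3K36me3 covered 62.2% to 65.1% of their summed windows in WT and 55.4% to 75.4% in cKO. H3K27ac covered 18.1% to 24.3% of them in WT and 13.9% to 14.7% in cKO. These sums include Lyz2, the gene that holds the Cre in cKO mice. Of 2 lists of 5 marker genes each, for neutrophils and for lymphocytes, no gene had an H3K36me3 region. Regions of H3.3-HA were in both replicates at 2 of the 5 neutrophil genes and 2 of the 5 lymphocyte genes. They covered 5.7% to 9.24% of the neutrophil list and 3.89% to 6.12% of the lymphocyte list, against 22.9% to 33.6% of the macrophage list. H3.3-HA was thus not confined to macrophage markers. H3K27ac covered 1.11% to 2.47% of the neutrophil list in WT and 2.23% to 4.79% in cKO, of which Elane had regions in all 4 libraries. It covered 0 to 0.613% of the lymphocyte list in WT and 0 to 1.48% in cKO, all at Cd79a. The endothelial marker Cdh5 had 1989 and 1620 bp of H3K27ac in WT and 1131 and 1397 bp in cKO, and 1171 and 2052 bp of H3.3-HA. The erythroid factor Klf1 had 799 bp of H3K27ac in cKO replicate 2 only. Ly6g, Cd3e, Ncr1, Col1a2 and Pdgfra had no region of any kind. The part of these genes in the results was not tested.

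The sequences that carry the promoter result below are shown first. They are the 300 bases around the start of Atrx, Cabin1, Ubn2 and Daxx, whose promoter windows lay under H3K27ac in both cKO libraries and in neither WT library, and of Ubn1, whose window lay under H3K27ac in all 4. All 8 genes had a RefSeq window (build GRCm38.p6, the same coordinates as mm10), which runs from 250 bases before the start to 50 bases after it. Each sequence is written 5′ to 3′ along the gene. Capitals mark matches, on either strand, to the CCAAT box (CCAAT, bound by NF-Y), the GC box (GGGCGG, bound by SP1), the cyclic AMP response element (TGACGTCA), the core of the YY1 motif (AANATGGC), the cell cycle homology region (TTTGAA) and the core of the interferon response element (GAAANNGAA), and neighbouring or overlapping matches run together.
Atrx, chrX:105929323-105929622, minus strand: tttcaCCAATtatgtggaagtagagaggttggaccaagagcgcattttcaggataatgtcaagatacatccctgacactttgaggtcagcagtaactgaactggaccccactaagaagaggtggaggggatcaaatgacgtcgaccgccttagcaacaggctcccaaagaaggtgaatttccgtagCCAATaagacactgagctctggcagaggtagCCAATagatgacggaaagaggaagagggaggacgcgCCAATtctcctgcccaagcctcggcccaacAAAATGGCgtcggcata
Cabin1, chr10:75764308-75764607, minus strand: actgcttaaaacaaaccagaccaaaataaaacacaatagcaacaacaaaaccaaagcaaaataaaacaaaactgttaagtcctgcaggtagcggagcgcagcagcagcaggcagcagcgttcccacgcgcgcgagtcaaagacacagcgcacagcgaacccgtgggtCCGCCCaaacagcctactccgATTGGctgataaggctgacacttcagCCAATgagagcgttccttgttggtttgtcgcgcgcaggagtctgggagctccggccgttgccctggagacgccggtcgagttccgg
Ubn2, chr6:38433675-38433974, plus strand: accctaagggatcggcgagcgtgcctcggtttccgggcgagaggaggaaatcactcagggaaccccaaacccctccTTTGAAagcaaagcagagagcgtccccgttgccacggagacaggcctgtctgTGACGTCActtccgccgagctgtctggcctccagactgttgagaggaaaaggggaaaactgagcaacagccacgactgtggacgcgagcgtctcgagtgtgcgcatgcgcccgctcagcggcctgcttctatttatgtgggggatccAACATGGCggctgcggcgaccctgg
Daxx, chr17:33909195-33909494, plus strand: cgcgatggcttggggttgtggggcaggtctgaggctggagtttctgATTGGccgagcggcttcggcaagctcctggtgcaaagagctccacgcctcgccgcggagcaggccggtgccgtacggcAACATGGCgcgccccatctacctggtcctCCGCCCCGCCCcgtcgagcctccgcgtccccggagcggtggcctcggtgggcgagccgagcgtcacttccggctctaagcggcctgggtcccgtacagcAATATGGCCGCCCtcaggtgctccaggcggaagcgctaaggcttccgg
Ubn1, chr16:5049807-5050106, plus strand: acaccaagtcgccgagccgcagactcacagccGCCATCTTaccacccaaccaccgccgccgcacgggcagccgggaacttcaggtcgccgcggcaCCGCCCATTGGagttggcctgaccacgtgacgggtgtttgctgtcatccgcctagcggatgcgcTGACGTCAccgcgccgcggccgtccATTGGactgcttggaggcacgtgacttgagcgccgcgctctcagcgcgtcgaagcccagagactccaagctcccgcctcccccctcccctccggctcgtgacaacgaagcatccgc

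The motifs were chosen after the sequences had been read, and a match is not evidence of binding. The YY1 core was found in Atrx, Daxx, Ubn1 and Ubn2, 4 of the 8 genes, and in 6.23% of the 27025 RefSeq promoter windows. The CCAAT box was found in 6 of 8 and in 37.9% of all windows, with 4 matches in Atrx and 4 in Asf1b. The GC box was likewise found in 6 of 8 and in 35.9% of all windows. The cyclic AMP response element was found in Ubn1 and Ubn2 and in 1.88% of all windows, and the cell cycle homology region in Asf1b and Ubn2 and in 18.1% of all windows. The interferon element core was found in none of the 8 and in 8.57% of all windows. The GC content of the 8 windows ran from 50.3% in Atrx to 69.7% in Daxx, and the median over all windows was 52.7%.

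H3K27ac over the chaperone genes differed between WT and cKO BMDMs in both directions. Coverage was lower in both cKO libraries than in both WT libraries at Hira, Ubn2, Asf1a and Atrx, and higher in both at Daxx and Asf1b. At Ubn1 and Cabin1 the groups overlapped. The same rule called 38.2% of the 12767 genes with an H3K27ac region as lower and 17.4% as higher, so a call in itself is common, and 4 and 2 of 8 are counts of the same order as these shares. The median difference was -3.36 percentage points of the window over the 8 genes and -1.02 over all genes tested, at median window lengths of 68.6 and 30.3 kb. With 2 libraries against 2, the exact permutation test cannot give a p below 0.333, so no difference here could pass a test at the usual threshold. Scaling by the length of each list turned the background around, to 22.7% lower and 37.7% higher, and left 2 of the 8 genes lower (Hira and Ubn2) and 3 higher (Cabin1, Asf1b and Daxx).

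Hira encodes the scaffold of the HIRA complex and lies at chr16:18877037-18970309 on the plus strand. Its window of 98.3 kb held 24944 and 12937 bp of H3K27ac regions in the WT libraries and 3138 and 6239 bp in the cKO libraries. Both cKO values lay below both WT values, with means of 18940.5 ± 8490 and 4688.5 ± 2193 bp (SD, n = 2 each), a 4.04-fold difference (exact permutation p = 0.333, two-sided). Without WT replicate 1 the difference was -8248.5 bp in place of -14252 bp. The WT lists held 24 and 19 separate regions there and the cKO lists 6 and 9. Merged over the 4 libraries, 6 regions were found in both WT and neither cKO library and none in the reverse pattern. The widest of the 6, chr16:18947652-18950583, spans 2932 bp and an exon 72.1 kb downstream of the start. Within 1 kb of the start there was little, with 501 and 0 bp in WT and 350 and 0 bp in cKO. A read-through gene model, Gm28539, shares 85.7% of the Hira window on the same strand, so these regions cannot be assigned to Hira alone.

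The ubinucleins, which recognise H3.3 within the complex, gave different results. Ubn2 (chr6:38433950-38524825, plus strand) had 6080 and 6453 bp of H3K27ac in WT and 1502 and 2026 bp in cKO, with means of 6266.5 ± 264 and 1764 ± 371 bp, a 3.55-fold difference (exact permutation p = 0.333). The WT libraries nearly coincided and both cKO libraries lay far below them. Ubn1 (chr16:5050057-5086289, plus strand) had 10208 and 6094 bp in WT and 7060 and 5038 bp in cKO. These groups overlapped, with a difference of -2102 bp. A region of 4294 bp over its promoter, chr16:5048065-5052358, was present in all 4 libraries, with 4221 and 3379 bp covered in WT and 3729 and 3535 bp in cKO. It also lies over the start of the divergent gene Glyr1. Of its 18 merged regions 16 were present in some libraries of a genotype and not in others, 10 of them intronic.

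Cabin1 (chr10:75646112-75764341, minus strand) encodes the calcineurin-binding subunit that accompanies HIRA. It had 11220 and 9523 bp in WT and 6974 and 10428 bp in cKO, and the groups overlapped. An intronic region 87.4 kb from the start, chr10:75675514-75678461, was found in all 4 libraries, with 2791 and 2940 bp covered in WT and 1386 and 1509 bp in cKO. An H3.3-HA region of both replicates, described below, lies over it.

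The ASF1 paralogs were called in opposite directions. Asf1a (chr10:53596757-53609225, plus strand), whose product hands H3.3 to HIRA, was the most densely covered of the 8 genes. H3K27ac regions took up 69.2% and 66.6% of its window in WT and 32.4% and 48.5% in cKO, or 12090 and 11639 bp against 5659 and 8477 bp (exact permutation p = 0.333). In WT it formed 2 regions in each library, the last of which ran to the gene end. In cKO it formed 3 and 4 regions, and beyond 8.66 kb from the start there was none in replicate 1 and a single one in replicate 2, from 11.1 to 11.9 kb. Of the 12767 genes tested, 156 others (1.22%) had a difference as low or lower in percent of the window. All of Asf1a lies inside Mcm9, a gene on the opposite strand, so its regions cannot be assigned between them. Asf1b (chr8:83955507-83970197, plus strand) had no H3K27ac region in either WT library and 501 and 1561 bp in the cKO libraries, a difference of 1031 bp that was 501 bp without cKO replicate 2 and 1561 bp without cKO replicate 1. Both cKO libraries had a region 1.51 kb downstream of the start, within chr8:83956475-83957564.

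Of the genes for the pair that acts on heterochromatin, Daxx (chr17:33909414-33915590, plus strand), which encodes the chaperone that binds H3.3, had more coverage in cKO. It held 643 and 0 bp of H3K27ac in WT and 2213 and 4774 bp in cKO, or 5.75% and 0% of its window against 19.8% and 42.7% (exact permutation p = 0.333). Both cKO libraries lay above both WT libraries, but the cKO values were far apart, and without cKO replicate 2 the difference was 1891.5 bp in place of 3172 bp. Only 100 of the 12767 genes tested (0.783%) had a difference as high or higher in percent of the window. A region at the 3′ end, chr17:33914879-33916233, was present in both cKO libraries and in neither WT library, and it extends into the genes Tapbp and Zbtb22. Atrx (chrX:105797615-105929403, minus strand), which encodes the ATPase, had 6117 and 2845 bp in WT and 2038 and 1389 bp in cKO, means of 4481 ± 2314 and 1713.5 ± 459 bp, a 2.62-fold difference (exact permutation p = 0.333). The difference of -2767.5 bp was -1131.5 bp without WT replicate 1 and -4403.5 bp without WT replicate 2. No more than 4.47% of its window was covered in any library.

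**Figure D1:**
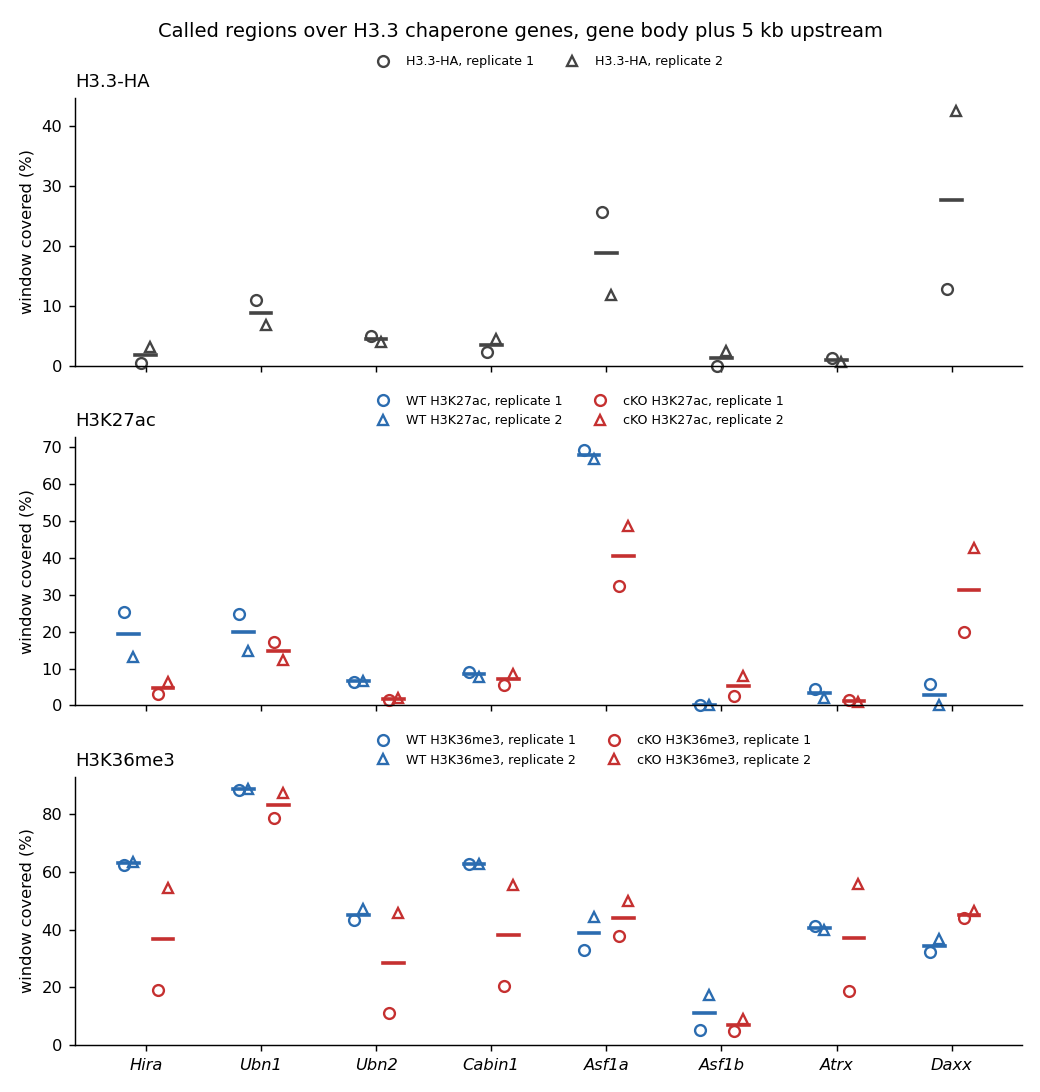
Share of the window (gene body plus 5 kb upstream, in percent) under called regions for each gene, with H3.3-HA, H3K27ac and H3K36me3 in separate panels. Circles are replicate 1, triangles replicate 2 and bars the mean of 2. H3K27ac of Asf1a was at 69.2% and 66.6% in WT and 32.4% and 48.5% in cKO, that of Daxx at 5.75% and 0% in WT and 19.8% and 42.7% in cKO, and in H3K36me3 the circles of cKO lie far below the triangles at Hira, Ubn2, Cabin1 and Atrx.

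**Figure D2:**
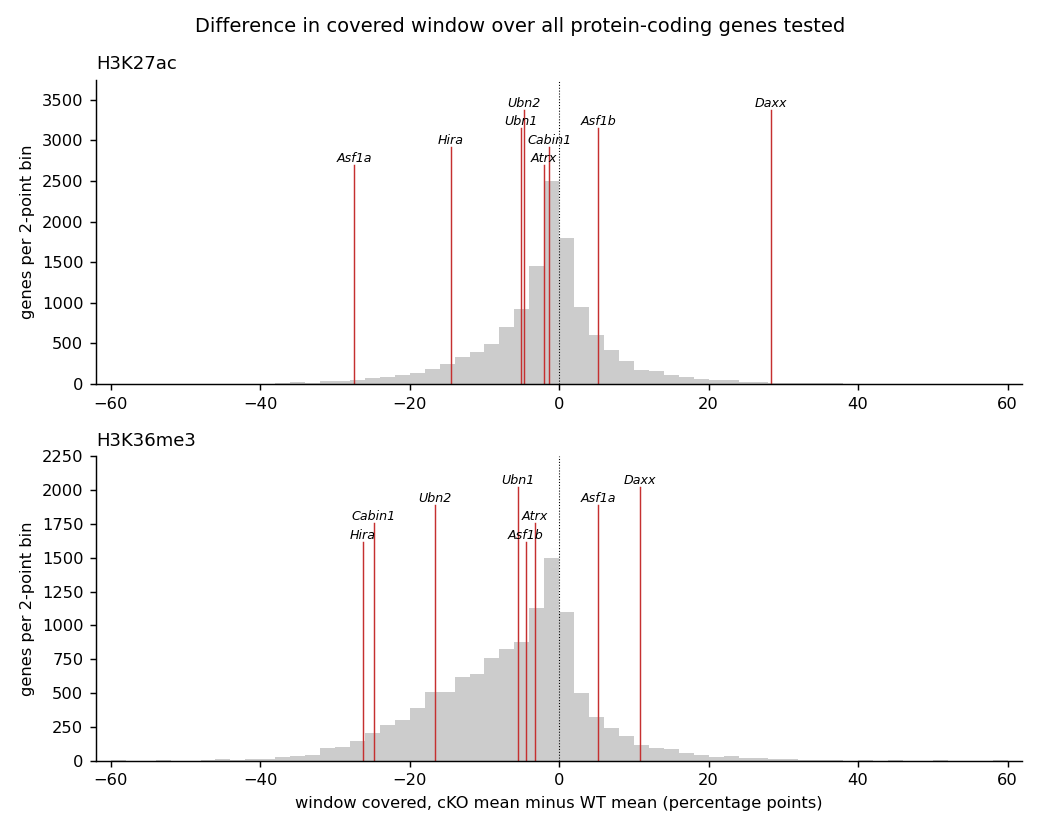
Number of protein-coding genes by the difference in percent of the window covered (cKO mean minus WT mean, percentage points, in bins of 2 points with values beyond 60 placed in the end bins). Red lines mark the 8 genes. For H3K27ac, Daxx lies at 28.4 and Asf1a at -27.5, on opposite edges of the distribution, whereas Cabin1 and Atrx lie near its centre.

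Where in the gene the mark was found differed between the genotypes. When each window was split into the bases within 1 kb of any protein-coding start and the rest, a split chosen after the promoter calls had been seen, the start piece was higher in both cKO libraries than in both WT libraries at 5 of 8 genes (Ubn2, Cabin1, Asf1b, Atrx and Daxx) and lower at none. Over all genes with H3K27ac in that piece, 37.8% were higher and 15.1% lower. The rest of the window was lower at 5 of 8 (Hira, Ubn2, Cabin1, Asf1a and Atrx) and higher at 2 (Asf1b and Daxx), against 46% and 10.9% of all genes. In each piece the more frequent direction was the same in the chaperone genes as over all genes. Ubn2, Cabin1 and Atrx were higher at the start and lower elsewhere. At Ubn2 the start piece held 0 and 358 bp in WT and 1001 and 1520 bp in cKO, and the rest 6080 and 6095 bp in WT and 501 and 506 bp in cKO. At Atrx the start piece held 0 and 0 bp in WT and 1036 and 888 bp in cKO, and the rest 6117 and 2845 bp in WT and 1002 and 501 bp in cKO. At Cabin1 the start piece held 644 and 0 bp in WT and 1179 and 1442 bp in cKO, and the rest 10576 and 9523 bp in WT and 5795 and 8986 bp in cKO. In each of these 6 pairs of groups the values did not overlap. The Asf1b start piece was called on 33 and 3 bp only, the edge of the region that begins about 1 kb into the gene.

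**Figure D3:**
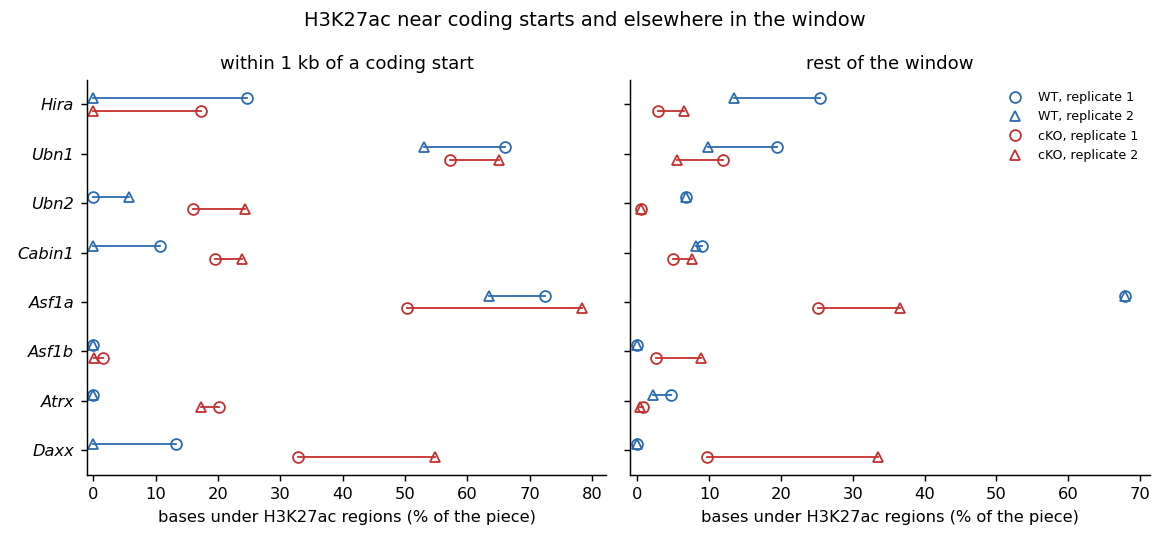
H3K27ac as percent of the bases within 1 kb of a protein-coding start (left) and of the rest of the window (right), with WT in blue, cKO in red, circles for replicate 1 and triangles for replicate 2. At Ubn2, Cabin1 and Atrx the red points lie to the right of the blue on the left panel and to their left on the right panel, while Daxx lies to the right on both.

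The promoter windows printed above lie within these start pieces and were picked by their H3K27ac calls. Their values at base level are therefore a closer view of the same regions and no separate support. The 300 bases of Atrx, Ubn2 and Daxx lay wholly under H3K27ac regions in both cKO libraries, with 300 bp covered in each, and those of Cabin1 with 282 and 300 bp. None of these 4 had a covered base in either WT library. Of the 8 windows, 6 had H3K27ac in any of the 4 libraries, and 4 of these 6 followed this pattern. Of the 8746 RefSeq windows with H3K27ac in any of the 4 libraries, 25.5% followed it, and 4.21% the reverse, which none of the 8 genes showed. The Ubn1 window was covered over all 300 bp in each of the 4 libraries. Asf1a had 174 and 300 bp in WT and 0 and 300 bp in cKO, and the windows of Hira and Asf1b were bare in all 10 libraries. None of the 8 windows had H3K27ac only in WT. The regions behind these calls differed in width. At Atrx the region present in cKO spans 1036 bp, chrX:105928868-105929903, centred on the start, while an intronic region centred 3.004 kb downstream, chrX:105925287-105927511, had 1712 and 2025 bp covered in WT and 501 and 0 bp in cKO. At Cabin1 it spans 1316 bp, chr10:75763394-75764709, and at Ubn2 2026 bp, chr6:38432444-38434469, where WT replicate 2 also had 501 bp upstream of the window. At Daxx it spans 4062 bp, chr17:33907015-33911076, with 1598 and 4062 bp covered in cKO, and WT replicate 1 had 643 bp of it downstream of the window. This Daxx region also lies over BC051226, a non-coding RNA gene on the opposite strand, so it cannot be assigned to Daxx alone.

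The wider promoter, 1 kb upstream to 100 bp downstream of any coding start, had an H3K27ac region in both WT libraries at 2 of 8 genes (Ubn1 and Asf1a) and in both cKO libraries at 6 (those and Ubn2, Cabin1, Atrx and Daxx). Over all genes the shares were 25% and 32.1%. Only Atrx was called in cKO replicates 1 and 2 and in no WT library, against 13.6% of the 9951 genes with a promoter region, because single WT libraries had regions upstream of Ubn2 and at internal starts of Cabin1 and Daxx. Merged over the 4 libraries, the 8 genes held 112 H3K27ac regions. Of these, 15 were found in both WT and neither cKO library, 11 of them intronic, 4 over exons and none at a promoter, and 14.2% of the 89774 merged regions of the genome had this pattern. The reverse was found for 5 regions, 2 at promoters, 2 in introns and 1 over an exon, against 3.34%. The other regions were in all 4 libraries (6) or split within at least 1 genotype (86), and 62 of these 86 were intronic. Some of the 86 were still found in both libraries of the other genotype, as at Atrx, chrX:105925287-105927511. These are counts of regions, and the lists hold no signal.

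**Figure D4:**
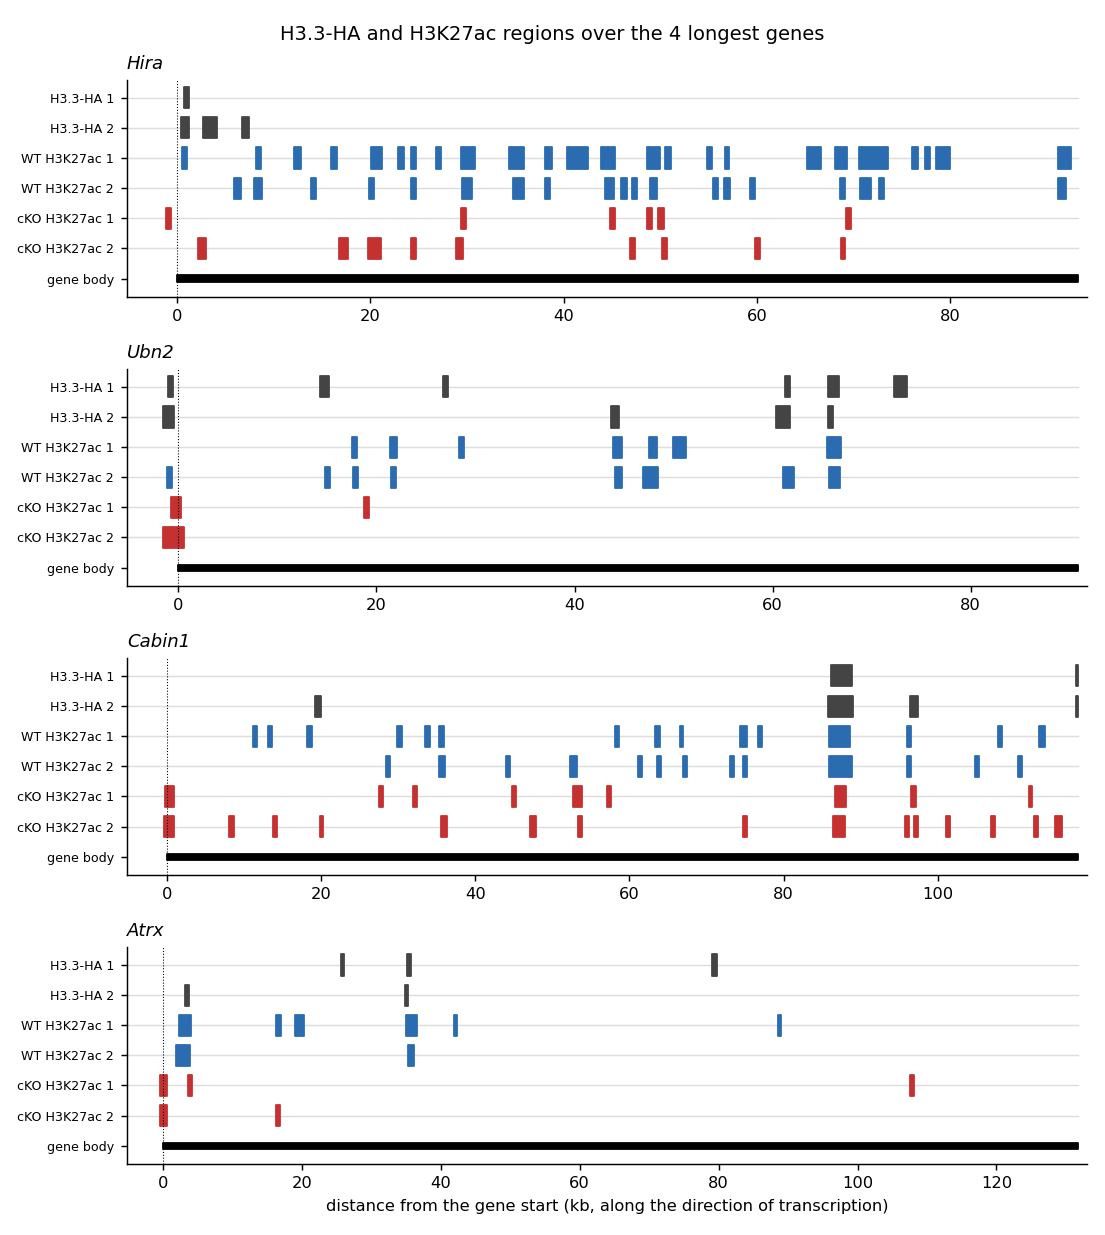
H3.3-HA (dark grey), WT (blue) and cKO (red) H3K27ac regions of each library over Hira, Ubn2, Cabin1 and Atrx, drawn by distance from the gene start in kb along the direction of transcription, with the gene body in black. Regions at the start appear in both cKO rows at Ubn2, Cabin1 and Atrx, and blue regions are more frequent than red over the bodies of Hira and Ubn2.

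H3K36me3 covered from 11.2% (Asf1b) to 88.7% (Ubn1) of the window on average in WT, and its comparison depended on the library that stood apart. Coverage was lower in both cKO libraries at Hira, Ubn1 and Cabin1 and higher in both at Daxx, with overlap at the other 4. Of the 11975 genes with an H3K36me3 region, 37.7% were lower and 7.85% higher by this rule, and scaling by list length changed these shares to 29.3% and 28.6%. The median difference was -4.97 percentage points over the 8 genes and -4.99 over all genes tested. Without cKO replicate 1, Hira, Ubn1 and Cabin1 remained lower and Asf1a, Atrx and Daxx were higher, against 38.2% and 41.5% of 11907 genes, and the medians were -0.244 and 0 percentage points. Hira had 61358 and 62570 bp in WT and 18661 and 53646 bp in cKO, and without cKO replicate 1 the difference shrank from -25810.5 to -8318 bp. Cabin1 had 77408 and 77407 bp in WT and 24992 and 68621 bp in cKO, and without that library the difference shrank from -30601 to -8786.5 bp. At both genes cKO replicate 1 lay far below replicate 2, which lay closer to the WT libraries. Ubn1 had 36469 and 36672 bp in WT and 32547 and 36067 bp in cKO. The second cKO value lay just below the nearer WT value, so the call at Ubn1 had little margin, and without cKO replicate 1 the difference shrank from -2263.5 to -503.5 bp.

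Daxx was the gene with more H3K36me3 in cKO. It had 3592 and 4093 bp in WT and 4923 and 5180 bp in cKO, means of 3842.5 ± 354 and 5051.5 ± 182 bp (SD, n = 2 each; exact permutation p = 0.333), and cKO replicate 1 lay close to replicate 2 there. Without it the difference was 1337.5 bp in place of 1209 bp. A single region lay over the gene body in each of the 4 libraries, within chr17:33910411-33916028. It began 2.47 and 1.97 kb downstream of the start in WT and 1.254 and 0.997 kb downstream in cKO. In percent of the window 514 of the other genes (4.29%) had a difference as high or higher. Both marks were thus higher over Daxx in cKO, and both were lower over Hira. Ubn2 had 41521 and 45194 bp in WT and 10771 and 44060 bp in cKO, and Atrx 56488 and 54339 bp in WT and 25570 and 76374 bp in cKO. At both genes the cKO replicates lay on either side of or within the WT range, and without cKO replicate 1 the sign of the difference turned, to 702.5 bp at Ubn2 and 20960.5 bp at Atrx. Asf1a had 5783 and 7754 bp in WT and 6615 and 8735 bp in cKO, a difference of 906.5 bp that was 1966.5 bp without cKO replicate 1. Asf1b had the least, with 1002 and 3417 bp in WT and 924 and 1739 bp in cKO, none of it within 1 kb of the start. Its difference was -878 bp, and -470.5 bp without cKO replicate 1. No gene had H3K36me3 over its gene start promoter in both libraries of a genotype, and the promoter calls of this mark, in both WT libraries at 5 genes and in both cKO libraries at 3, were all at internal starts. Over all genes the shares were 9.44% and 7.31%. In cKO replicate 2 alone the mark was called at 6 promoters of the 8 genes, and in at least 1 WT library also at 6. The share over all genes was not computed for 1 library, so the count from replicate 2 is not set against the shares for both. Merged over the 4 libraries, the 8 genes held 68 H3K36me3 regions, of which 30 were in all 4 libraries and 34 were split within a genotype. In both WT libraries and no cKO library there were 3, at Hira, Ubn2 and Cabin1, against 9.5% of the 58545 merged regions of the genome, and the reverse was found for 1, at Hira, against 2.45%. Without cKO replicate 1, 3 of 66 merged regions were in both WT libraries only and 7 in cKO replicate 2 only, against 10.9% and 15.9% of the genome's.

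By exons of the longest coding transcript, H3K36me3 in both WT libraries lay over 22 of 25 exons of Hira, 34 of 37 of Cabin1, 21 of 35 of Atrx, 17 of 19 of Ubn1, 13 of 17 of Ubn2 and 6 of 8 of Daxx. In both cKO libraries it lay over 9 exons of Hira, 13 of Cabin1, 18 of Atrx, 18 of Ubn1, 7 of Ubn2 and 7 of Daxx, counts that carry the short list of cKO replicate 1. Replicate 2 alone had the mark over 22 exons of Hira, 30 of Cabin1, 32 of Atrx, 18 of Ubn1, 15 of Ubn2 and 7 of Daxx. These counts need the mark in 1 library and the WT counts need it in both. A higher count than in WT can thus come from the looser rule and is not read as a gain. H3K27ac lay over 1 or no exon of each gene in both libraries of a genotype, apart from 2 of 4 exons of Asf1a in WT and 3 of 8 of Daxx in cKO.

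**Figure D5:**
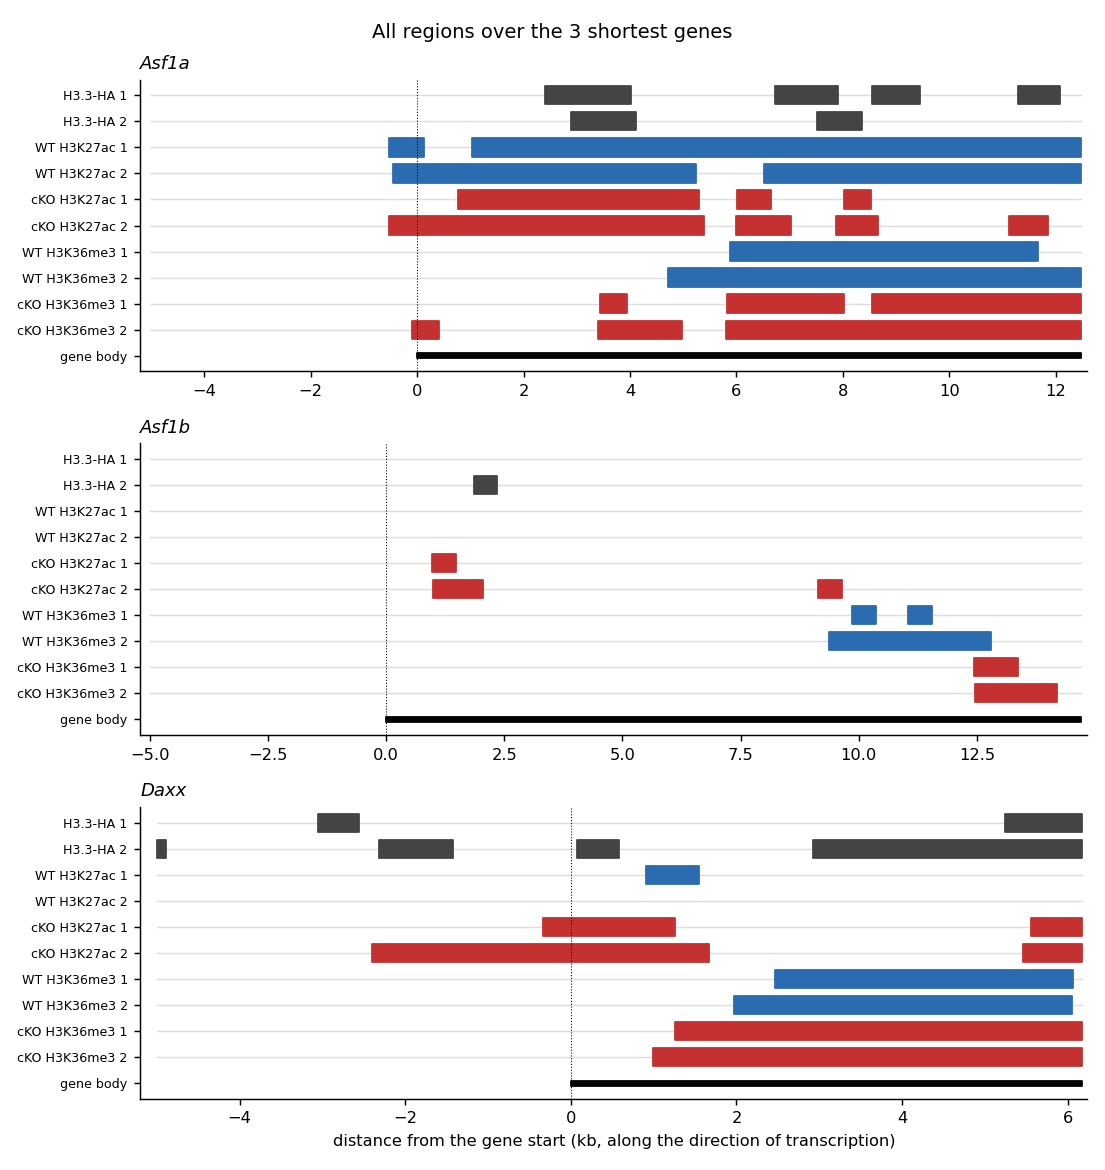
Regions of all 10 libraries over Asf1a, Asf1b and Daxx by distance from the gene start in kb, with H3.3-HA in dark grey, WT in blue, cKO in red and the gene body in black. H3K27ac fills Asf1a in WT and is broken in cKO, appears at Asf1b in cKO only, and spans the start of Daxx in both cKO libraries.

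H3.3-HA regions were found in both replicates at 7 of the 8 windows, all but Asf1b, and at 44.2% of all protein-coding genes. That share is over all 21938 genes, with or without a mark. The 8 windows were also long, with a median of 68.6 kb against 30.3 kb for the genes tested in H3K27ac. The count is therefore not read as an enrichment. Per length, Daxx was covered most, with 12.8% and 42.6% of the window, followed by Asf1a with 25.7% and 11.9%, and Ubn1 with 11% and 6.77%. Daxx and Asf1a overlapped, so their order is not fixed by these data, and both Ubn1 values lay below all 4 of theirs. Ubn2 had 4.98% and 3.95%, Cabin1 2.41% and 4.58%, Hira 0.51% and 3.1%, and Atrx 1.29% and 0.733%. Asf1b had no region in replicate 1 and 2.54% in replicate 2. Ubn2 was below both Ubn1 values and above both Hira and both Atrx values, and the other neighbours in this order overlapped. The only promoter with H3.3-HA in both replicates, against 13.5% of all genes, was that of Ubn2, at chr6:38432385-38433507, where 501 and 1123 bp were covered just upstream of the printed window. A region in an intron of Cabin1, chr10:75675298-75678593, was long in both replicates, with 2706 and 3296 bp covered.

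The replicates shared 8663 bp of H3.3-HA over the 8 windows. Of this length, 51.6% lay under H3K27ac in both WT libraries and 28.1% under H3K36me3 in both WT libraries. The genes differed. At Asf1a all 1527 shared bp lay under WT H3K27ac, and at Cabin1 83.9% of 2967 bp did, whereas at Daxx and Ubn1 none did and 87.2% of 929 bp and 85.9% of 1122 bp lay under WT H3K36me3. At Daxx, 66.2% of the shared length lay under H3K27ac in both cKO libraries. At Hira none of the 452 shared bp lay under either mark in both WT libraries. H3.3-HA was measured in cells that were not deleted and at lower depth, and no H3.3-HA list of cKO cells was used here.

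For each gene, the protein-coding gene whose coverage was closest over the 10 libraries, among genes with a window of similar length, was found by the mean absolute difference in percent of the window. Cabin1 was nearest to Smarcc1, at 2.05 percentage points among 1194 genes, Hira to Vac14 at 2.86 among 1447, Ubn2 to Phf8 at 2.26 among 1466, and Atrx to Helz at 3.04 among 1085. Ubn1 was nearest to Parp9 at 3.89, Asf1b to Mmab at 1.89, Daxx to Cfl1 at 5.52 and Asf1a to Mmp27 at 6.54. The last pair of distances is the largest of the 8.

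Other genes of histone supply were read by the same rule. Over all genes tested it called 38.2% lower and 17.4% higher in H3K27ac, and 37.7% lower and 7.85% higher in H3K36me3. The counts below come from short lists and are to be read beside these shares. H3f3a and H3f3b, the H3.3 genes, had higher H3K27ac in both libraries labelled cKO, at H3f3b over exons given as floxed, with 2153 and 2163 bp in WT and 4058 and 3568 bp in cKO at H3f3a, and 6446 and 5784 bp in WT and 7209 and 9453 bp in cKO at H3f3b. H3K36me3 was higher at H3f3b, with 645 and 860 bp in WT and 2396 and 2675 bp in cKO, and overlapped at H3f3a. Of the 6 partners of DAXX and ATRX (Pml, Sp100, Morc3, Trim28, Setdb1 and Cbx5), 1 was higher in H3K27ac and none lower, and none was called in H3K36me3. The called gene was Cbx5, which encodes the heterochromatin protein HP1 alpha and had 3335 and 2505 bp in WT and 5993 and 8773 bp in cKO. Of the 12 genes of replication-coupled assembly and H3-H4 supply, 4 were lower and 1 higher in H3K27ac, and 1 was lower in H3K36me3. Mms22l, a partner of TONSL at replication forks, had the largest H3K27ac difference of these 12 genes, with 33002 and 31883 bp in WT and 3684 and 5984 bp in cKO. Cdan1, which encodes the ASF1-binding codanin-1, was the 1 called lower in H3K36me3, with 22458 and 20980 bp in WT and 8524 and 15473 bp in cKO.

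Of the 10 transcription-linked chaperones and remodelers, 5 were lower and 3 higher in H3K27ac, and 2 lower and 2 higher in H3K36me3. The shares over all genes, lower and higher, were 38.2% and 17.4% in H3K27ac and 37.7% and 7.85% in H3K36me3. Chd2, a chromatin remodeler, went opposite ways in the marks, with H3K27ac of 54210 and 41450 bp in WT and 22853 and 25899 bp in cKO, and H3K36me3 of 100434 and 100509 bp in WT and 104839 and 117882 bp in cKO. Of the 6 chaperones of other histone variants, 2 were lower and 2 higher in H3K27ac and 1 was lower in H3K36me3. Anp32e, which removes H2A.Z, had H3K27ac of 1002 and 0 bp in WT and 1664 and 5040 bp in cKO, and H3K36me3 of 8160 and 10599 bp in WT and 3100 and 6682 bp in cKO.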

How the data were processed

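CUT&RUN regions were analysed for 10 of 15 samples, and the 5 IgG samples served the authors as controls. The submitters' processing notes name cutadapt, Bowtie and HOMER with build mm10, without versions. The deposited lists hold region positions and a score column that is a constant placeholder of 1, with no signal height. Per the file headers, the authors called regions with HOMER in each replicate alone against IgG (peak size 500 bp, 4-fold and Poisson p of 1e-04 over control), so depth and the share of tags in regions bear on how much is covered. The WT lists were called against WT IgG and the cKO lists against cKO IgG. The control thus differed with genotype, which also bears on coverage, and its part in the differences was not tested. Here, overlapping regions of a library were merged, and covered bp were summed over the gene body plus 5 kb upstream (GENCODE M21). A gene was called lower or higher in cKO when both cKO values lay outside both WT values on the same side. Differences were tested with the exact permutation test (two-sided, smallest possible p = 0.333). A promoter ran from 1 kb upstream to 100 bp downstream of a protein-coding start, and an overlap of 1 bp counted. All 8 chaperone genes, the H3.3 genes, up to 2 called genes of the other lists per mark and direction, the nearest gene by pattern and overlapping genes are named. The members and lists were chosen with earlier results of these data known. Python 3.11.15, NumPy 2.4.6 and matplotlib 3.10.9 were used, and the code was tested on simulated data.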

Additional observations from a re-analysis of the deposited data

How the results depend on the processing

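Of 104 alternatives for single genes in H3K27ac, 84 kept direction and call, 9 reversed, 7 gained a call and 4 lost it, and of 96 in H3K36me3 the numbers were 72, 10, 13 and 1. The number of genes lower in H3K27ac, 4 as reported, was 2 per Mb of list and 2 by number of regions, and 4 to 6 when 1 library was left out. The number higher, 2 as reported, was 1 with regions of at least 1 kb. For H3K36me3 the number lower, 3 as reported, was 1 by number of regions and 3 to 6 when 1 library was left out (6 without cKO replicate 2, 5 without WT replicate 1), and the number higher, 1 as reported, was 2 per Mb of list, 2 by number of regions and 1 to 3 when 1 library was left out (3 without cKO replicate 1). With 1 library left out, 1 value of a genotype is compared with 2 of the other, so calls can only be kept or added. Shares over all genes were computed for this only without cKO H3K36me3 replicate 1. The leave-out counts are thus not read as a trait of the chaperone genes. With the replicate number as a block (replicate block), 5 genes were lower and 2 higher in H3K36me3, and 5 lower and 2 higher in H3K27ac. The deviations of same-numbered libraries correlated at r = 0.376 over 11975 genes in H3K36me3 and -0.384 over 12767 genes in H3K27ac, and with 2 pairs the numbers are not taken as a pairing. The crossed pairing for H3K27ac gave 5 lower and 2 higher.

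Promoter counts changed with the definition. H3.3-HA in both replicates, 1 gene as reported, was 2 within 1 kb on both sides of a start and 0 with regions of at least 1 kb. H3K36me3 promoters, 5 in WT and 3 in cKO, were 0 and 0 at the gene start, and the cKO count was 5 within 1 kb on both sides. H3K27ac promoters found in both cKO and neither WT library, 1 as reported, were 2 within 1 kb on both sides, 3 at the gene start, 3 with regions of at least 1 kb and 4 with lists of equal number. H3.3-HA windows, 7 as reported, were 4 with regions of at least 1 kb and 7 to 8 with 1 replicate left out. Within 1 kb of a start, the number higher, 5 as reported, was 3 with regions of at least 1 kb, and the number lower, 0 as reported, was 0 to 2 when 1 library was left out. In the rest of the window, the number higher was 1 with regions of at least 1 kb.

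Signs turned as follows, with the difference cKO minus WT in bp, in bp per Mb of list or in number of regions. For H3K27ac, Ubn1 was at 880 with lists of equal number (widest regions kept), 550 in file order and 19.4 per Mb. Cabin1 was at 3858.5, 3884.5 and 33.4 in the same order, 455 with regions of at least 1 kb and between -3397.5 and 56.5 (without cKO replicate 1) with 1 library left out. Asf1a was at 1.5 by number of regions. For H3K36me3, the number of regions gave 1 at Hira, 2 at Ubn1 and 6.5 at Cabin1, and the value per Mb was 70.7 at Ubn1 and 42.5 at Atrx. With 1 library left out, Ubn2 ran from -32586.5 to 702.5 and Atrx from -29843.5 to 20960.5, both positive without cKO replicate 1. Asf1a ran from -153.5 (without cKO replicate 2) to 1966.5, and was at -79 without WT replicate 1, and Asf1b ran from -2085.5 to 329.5 (without WT replicate 2). The cause was not tested. Lists in file order, the split around starts, the crossed pairing and the H3K36me3 exon, promoter and region counts without cKO replicate 1 were chosen after seeing the data. With 2 libraries per group and no signal heights, a weak region and no region cannot be told apart near the calling threshold.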
